A study of Saccharomyces cerevisiae with 24 samples.

Results

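The UPS genes of budding yeast encode proteins that carry phospholipids between the mitochondrial membranes. Transcripts of the UPS family and of enzymes that make or remodel mitochondrial phospholipids were followed in 3 yeast strains that differ at the transcription factor gene SEF1. The 8 genes were UPS2 (YLR168C, chromosome XII), UPS1 (YLR193C, chromosome XII), UPS3 (YDR185C, chromosome IV), CHO1 (YER026C, chromosome V), PSD1 (YNL169C, chromosome XIV), PGS1 (YCL004W, chromosome III), CRD1 (YDL142C, chromosome IV) and TAZ1 (YPR140W, chromosome XVI). They were chosen by name among the 6256 genes on the array, each of which had 1 probe with 2 spots. UPS2 was selected on its strain differences in these same arrays, so its values are given as a description, with no test. The other 7 genes, and 40 further lipid genes named for their place in the same pathways, were read from tests that ran over all measured genes.

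Ups2 and Ups1 act in the space between the outer and inner mitochondrial membranes, each bound to the small partner Mdm35. Ups1 carries phosphatidic acid to the inner membrane, where the enzymes Tam41, Pgs1, Gep4 and Crd1 turn it into cardiolipin, the signature lipid of that membrane. Taz1 exchanges the acyl chains of cardiolipin. Ups2 carries phosphatidylserine, the product of Cho1 in the endoplasmic reticulum, to the inner membrane decarboxylase Psd1, which makes phosphatidylethanolamine. Ups3 is a paralog of Ups2.

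Cells were W303 yeast of mating type a (MATa). Per the study's strain list, all 3 strains carried the W303 marker alleles of HIS3, TRP1, URA3, ADE2, LEU2 and CAN1. The strain called WT had an intact SEF1, sef1 carried the deletion sef1D::NatMX4, and SEF1-VP16 was 1 clone in which SEF1 was fused at its own locus to the activation domain of VP16, a viral protein (SEF1-VP16::FRT). From overnight YPD cultures, cells were set to a density of 0.2 OD600 per ml and kept at 30 °C for a further 5.5 h, in either YPD, a glucose medium, or YPGly, a glycerol medium in which yeast must respire. Per the study's methods, harvest was in early log phase, at a higher density in YPD than in YPGly. Medium and density at harvest therefore cannot be told apart. Each of the 6 groups had 4 biological replicates, which gave 24 arrays.

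Levels are log2 intensities relative to the 75th percentile of the same array, so 0 is the level of that percentile. That percentile lay between 5320 and 16182 units of intensity (3.04-fold apart), and arrays of 1 group correlated across genes with r of at least 0.988. The SEF1 probe was not well above background on any sef1 array, and was on every array of the other strains. Its levels in YPD were −5.5 to −5.1 in SEF1-VP16 and −4.8 to −4.1 in WT. In YPGly they were −4.3 to −3.8 in SEF1-VP16 and −3.8 to −3.0 in WT. The MATa markers MFA1, MFA2, STE2 and BAR1 were well above background on all 24 arrays, as was the MATalpha marker STE3, while the MATalpha markers MFALPHA1 and MFALPHA2 were too dim to be tested. Their levels were not equal among strains. In YPGly, SEF1-VP16 minus sef1 was −0.61 for MFA1, −0.92 for MFA2, −0.49 for STE2, −0.23 for BAR1 and 0.33 for STE3. The arrays lay on 3 slides of 8 arrays. WT and sef1 in YPD shared a slide, as did SEF1-VP16 in YPD with WT in YPGly, and sef1 with SEF1-VP16 in YPGly. Every other comparison crossed slides, and there strain or medium and slide cannot be told apart.

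The UPS2 level rests on the single probe printed here, a 60-base oligonucleotide from chromosome XII that carried the largest strain differences among the 8 genes. Sequences of 4 further probes are shown because their genes are described beside it. INO2 (chromosome IV) is a lipid gene that differed between strains, and APS1 (chromosome XII) is a gene near UPS2 that also differed between strains. HAP4 (chromosome XI) and ISU1 (chromosome XVI) were among the probes most like UPS2 once the mean of each medium was removed. Each sequence is written 5′ to 3′, with no part marked.
UPS2: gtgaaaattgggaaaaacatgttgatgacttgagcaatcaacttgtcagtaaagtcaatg
INO2: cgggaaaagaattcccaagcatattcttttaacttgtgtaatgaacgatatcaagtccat
APS1: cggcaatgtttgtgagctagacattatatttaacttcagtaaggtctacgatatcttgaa
HAP4: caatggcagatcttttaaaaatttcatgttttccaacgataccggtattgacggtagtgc
ISU1: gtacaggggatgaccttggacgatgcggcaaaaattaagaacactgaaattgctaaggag

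UPS2, which encodes the phosphatidylserine carrier, was lowest in WT, intermediate in sef1 and highest in SEF1-VP16, and in each strain it was higher in glycerol than in glucose. In WT its 4 levels in YPD were −2.29, −2.21, −2.36 and −2.34, and in YPGly they were −1.15, −0.70, −1.23 and −0.53. In sef1 the YPD levels were −0.47, −0.39, −0.35 and −0.46, and the YPGly levels were 0.81, 0.68, 0.64 and 0.66. In SEF1-VP16 they were 0.99, 1.05, 1.06 and 1.16 in YPD and 1.38, 1.53, 1.38 and 1.55 in YPGly. No 2 of the 6 groups overlapped. The RNA is that of whole cultures, so that a change in a share of the cells and a change in every cell cannot be told apart. The WT arrays in YPGly were the most scattered, with an SD of 0.34 against 0.06 to 0.09 in the other 5 groups, and replicates 1 and 3 lay below replicates 2 and 4.

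**Figure D1:**
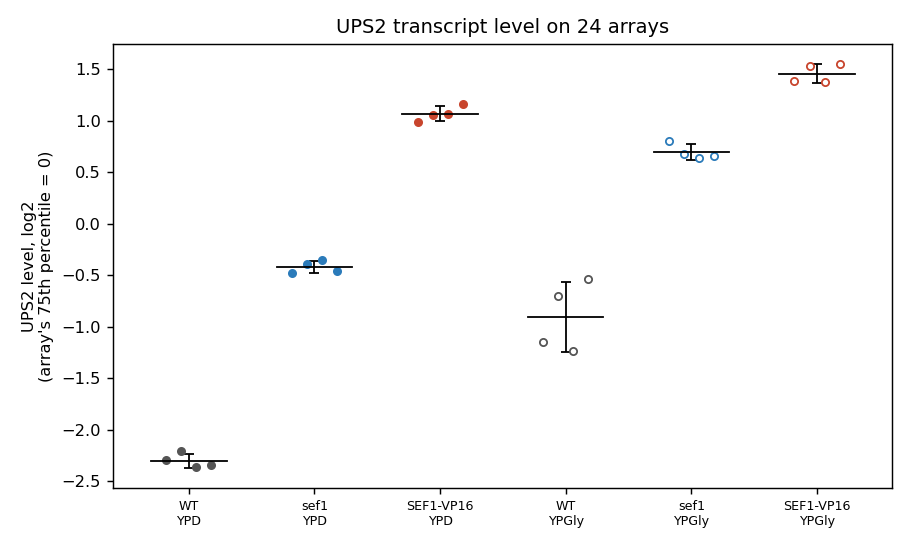
UPS2 level on each of the 24 arrays (vertical axis, log2 intensity relative to the array's 75th percentile) in the 6 groups of strain and medium. Points are arrays (filled in YPD, open in YPGly), horizontal lines are group means and bars are SD (n = 4), and the groups run from −2.30 in WT in YPD to 1.46 in SEF1-VP16 in YPGly without overlap.

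Ordered by their means, the groups ran from WT in YPD (−2.30 ± 0.07, SD, n = 4) to WT in YPGly (−0.90 ± 0.34), sef1 in YPD (−0.42 ± 0.06), sef1 in YPGly (0.70 ± 0.07), SEF1-VP16 in YPD (1.07 ± 0.07) and SEF1-VP16 in YPGly (1.46 ± 0.09). The closest neighbours in that order were WT in YPGly and sef1 in YPD, whose nearest arrays were 0.06 apart. The deletion strain in glucose was therefore above the wild type in glycerol on every array, by 0.48 between the means, beside an SD of 0.34 in those WT arrays. Strain, medium and slide all differed between these groups. From sef1 in YPGly to SEF1-VP16 in YPD the nearest arrays were 0.18 apart, and between the media in SEF1-VP16 they were 0.21 apart.

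The same probe in sef1 exceeded WT by 1.88 ± 0.06 (SE of the limma fit) on the log2 scale in YPD and by 1.60 ± 0.14 in YPGly, which is 3.68-fold and 3.03-fold. SEF1-VP16 exceeded WT by 3.37 ± 0.06 in YPD, or 10.3-fold, and by 2.36 ± 0.15 in YPGly, or 5.14-fold. SEF1-VP16 also exceeded sef1, by 1.49 ± 0.05 in YPD and 0.76 ± 0.07 in YPGly. UPS2 was thus higher than in WT both in the strain without SEF1 and in the strain with the VP16 fusion. Counted from the largest increase, UPS2 was number 2 among the 5641 probes tested in sef1 against WT in each medium. For SEF1-VP16 against WT it was number 3 in YPD and number 8 in YPGly. These ranks are a description, since UPS2 was selected on its strain differences.

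Within a slide lay 2 strain comparisons, that of sef1 with WT in YPD and that of SEF1-VP16 with sef1 in YPGly, and in both the first strain was on the second row of the slide. In an additive fit of strain, medium and slide over the 24 arrays, UPS2 was 1.88 ± 0.10 higher in sef1 and 2.64 ± 0.15 higher in SEF1-VP16 than in WT, and 0.76 ± 0.10 higher in SEF1-VP16 than in sef1. By construction the first and the third of these equal the estimates within a slide, and the second is their sum. No SEF1-VP16 array in YPD and no WT array in YPGly enters these estimates, so they do not test the differences seen there. The 2 spots of the UPS2 probe differed by at most 0.18 on any array.

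The glycerol medium went with a UPS2 level that was higher by 1.40 ± 0.15 in WT (2.63-fold), by 1.12 ± 0.06 in sef1 (2.17-fold) and by 0.39 ± 0.06 in SEF1-VP16 (1.31-fold). The step was smallest in the strain where UPS2 was highest. Put as the strain difference in YPGly minus that in YPD, the value was −0.28 ± 0.17 with sef1 and −1.0 ± 0.17 with SEF1-VP16 set against WT, and −0.73 ± 0.08 with SEF1-VP16 set against sef1. Without WT in YPGly replicate 4 the first of these was −0.15. Medium and slide changed together in all 3.

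UPS1 and UPS3, the other genes of the family, did not pass the test in any strain comparison. A gene passed when its adjusted p (limma, Benjamini-Hochberg over 5641 probes) was below 0.05 and its level differed at least 1.5-fold. In YPD, UPS1 levels were −0.22, −0.36, −0.30 and −0.28 in WT, −0.39, −0.49, −0.50 and −0.44 in sef1 and −0.49, −0.51, −0.48 and −0.59 in SEF1-VP16. In YPGly they were 0.23, 0.34, 0.18 and 0.25 in WT, 0.27, 0.26, 0.08 and 0.10 in sef1 and 0.51, 0.36, 0.33 and 0.39 in SEF1-VP16. The arrays of the media did not overlap in any strain, while strains within a medium lay close together or overlapped.

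UPS3 levels in YPD were −2.37, −2.36, −2.40 and −2.47 in WT, −2.43, −2.42, −2.44 and −2.36 in sef1 and −2.45, −2.43, −2.42 and −2.32 in SEF1-VP16. In YPGly they were −3.02, −3.01, −2.94 and −3.16 in WT, −3.30, −3.30, −3.37 and −3.25 in sef1 and −2.95, −3.02, −2.93 and −3.00 in SEF1-VP16. The strains overlapped in YPD, whereas in YPGly the sef1 arrays were below those of both other strains. That gap was 0.33 ± 0.06 for SEF1-VP16 against sef1 (adjusted p = 0.0028, limma), under the 1.5-fold minimum, and −0.27 ± 0.07 for sef1 against WT (adjusted p = 0.050, just above the threshold). The first of these comparisons lay within a slide and the second crossed slides.

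UPS1 and UPS3 differed between the media in opposite directions. UPS1 rose in YPGly by 0.64 ± 0.06 in sef1 (adjusted p = 1.9e-06, limma) and by 0.91 ± 0.06 in SEF1-VP16 (adjusted p = 1.3e-07), and in WT its difference of 0.54 ± 0.07 was under 1.5-fold (adjusted p = 3.8e-05). UPS3 fell in YPGly in WT, with a difference of −0.63 ± 0.07 (adjusted p = 1.7e-05), and in sef1, with −0.89 ± 0.05 (adjusted p = 1.8e-08). In SEF1-VP16 its difference of −0.57 ± 0.05 was under the fold minimum (adjusted p = 2.8e-06). The UPS1 level in SEF1-VP16 minus that in WT was −0.22 ± 0.05 in YPD and 0.15 ± 0.07 in YPGly, and the change of 0.37 ± 0.08 between these values of opposite sign was under the fold minimum (adjusted p = 0.0027). The UPS3 level in SEF1-VP16 minus that in sef1 changed by 0.33 ± 0.06 from YPD to YPGly (adjusted p = 0.0010), also under it.

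**Figure D2:**
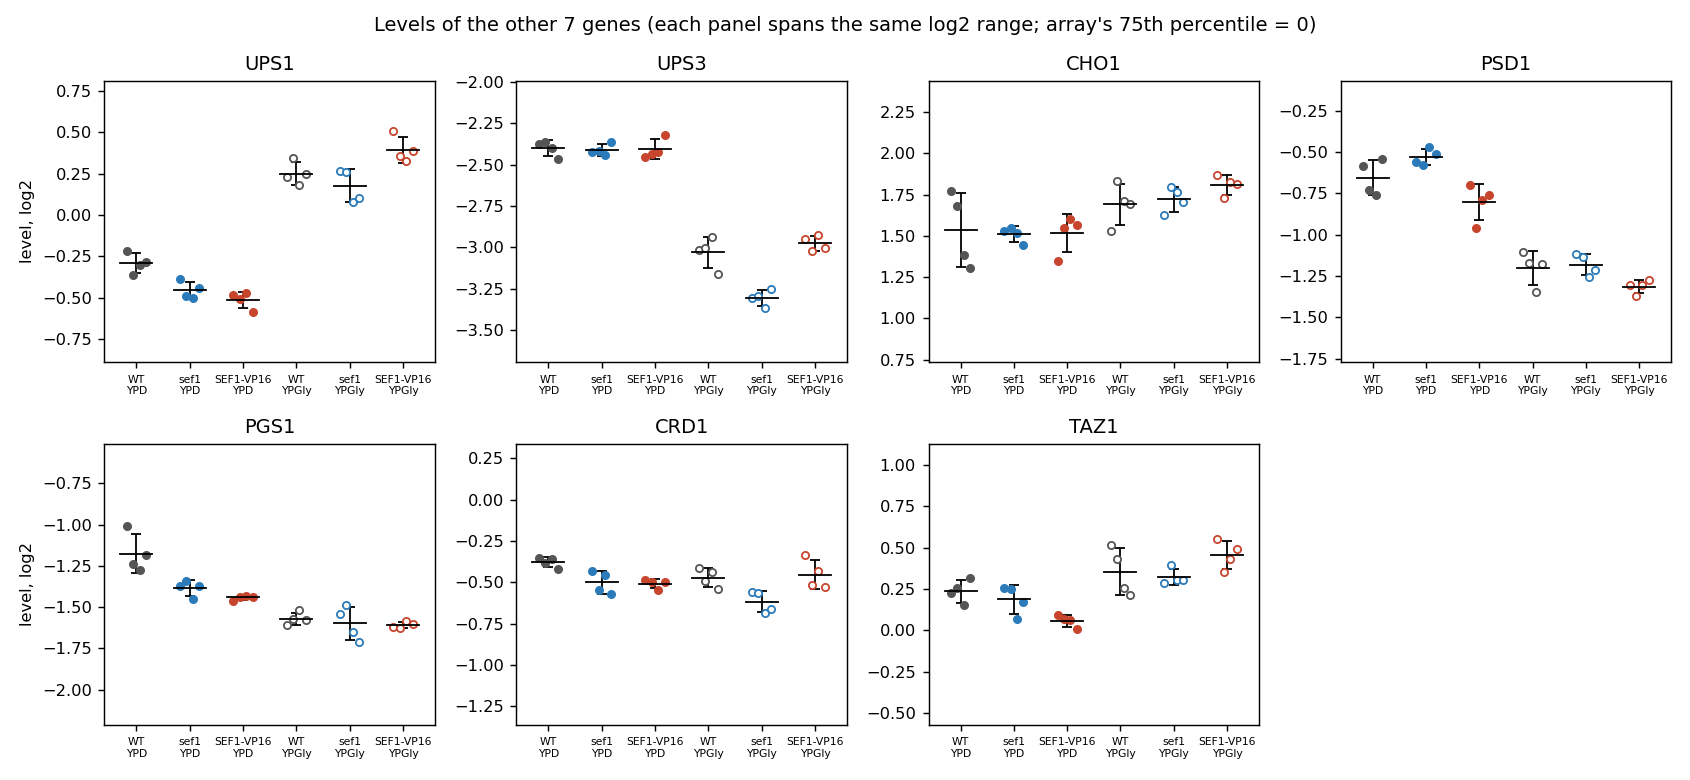
Levels of UPS1, UPS3, CHO1, PSD1, PGS1, CRD1 and TAZ1 on each array (vertical axes, log2 intensity relative to the array's 75th percentile, each spanning the same range) in the 6 groups. Points are arrays (grey WT, blue sef1, red SEF1-VP16, filled in YPD and open in YPGly), lines are means and bars are SD (n = 4), and the media stand apart for UPS1, UPS3, PSD1 and, by less, PGS1 in every strain.

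The 5 enzyme genes were measured well above background on all 24 arrays, as were UPS1, UPS2 and UPS3. CHO1, which encodes phosphatidylserine synthase, had group means between 1.51 and 1.81 and overlapped between all 3 strains in both media. PSD1, which encodes the mitochondrial phosphatidylserine decarboxylase, had YPD levels of −0.59, −0.73, −0.76 and −0.54 in WT, −0.56, −0.58, −0.47 and −0.51 in sef1 and −0.70, −0.96, −0.79 and −0.76 in SEF1-VP16. In YPGly its levels were −1.11, −1.17, −1.34 and −1.18 in WT, −1.12, −1.13, −1.26 and −1.22 in sef1 and −1.31, −1.37, −1.31 and −1.27 in SEF1-VP16. All YPGly arrays were below all YPD arrays.

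PSD1 fell in YPGly in sef1, with a difference of −0.65 ± 0.05 (adjusted p = 5.2e-07, limma). In WT the difference of −0.54 ± 0.08 (adjusted p = 0.00013) and in SEF1-VP16 that of −0.51 ± 0.06 (adjusted p = 2.6e-05) were under 1.5-fold. The WT one passed the fold minimum with other scalings, at −0.64 with the array median, −0.59 with quantile normalization and −0.60 with normexp, a model-based background correction, and the UPS1 rise in sef1 dropped under it with the array median, at 0.56. The UPS1 difference in WT passed with normexp, at 0.66. UPS2, which has no test, and PSD1, whose products deliver and convert the same lipid, thus differed in opposite directions between the media. PSD2, the other phosphatidylserine decarboxylase gene of the lipid list, went the other way from PSD1. Its means in YPGly and YPD were −0.87 and −1.37 in WT, −0.79 and −1.26 in sef1, and −0.92 and −1.63 in SEF1-VP16. All of these comparisons crossed slides.

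The cardiolipin genes among the 8 varied little. PGS1, which encodes the enzyme that commits the pathway to phosphatidylglycerol phosphate, had group means between −1.61 and −1.18. Its arrays in YPGly were all below those in YPD. CRD1, which encodes cardiolipin synthase, had group means between −0.62 and −0.38, and TAZ1, which encodes the cardiolipin transacylase, between 0.06 and 0.46. None of these genes passed the test between strains or between media. The largest of their medium differences was that of TAZ1 in SEF1-VP16, 0.40 ± 0.06 (adjusted p = 7.4e-05, limma), with −0.39 ± 0.07 for PGS1 in WT (adjusted p = 0.00075).

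Over the 6 strain comparisons, 0 of the other 7 genes passed the test in any, and the largest of their 42 differences was 0.33. In each of the 42 the 95% interval of the difference lay within 1.5-fold in either direction (0.58 on the log2 scale). The share of all tested probes that passed was 0.674% for sef1 against WT in YPD and 0.798% in YPGly, 9.15% for SEF1-VP16 against WT in YPD and 1.1% in YPGly, and 3.14% for SEF1-VP16 against sef1 in YPD and 3.08% in YPGly. At shares this low a count of 0 among 7 genes is near the background. At an adjusted p below 0.05 alone, 4 of the 7 passed for SEF1-VP16 against WT in YPD, beside 48.1% of all probes, 1 for SEF1-VP16 against sef1 in YPD, beside 44.1%, and 2 for SEF1-VP16 against sef1 in YPGly, beside 22.7%. In the other 3 strain comparisons 0 of the 7 did.

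The span of the 6 group means sets the genes apart by size. It was 3.76 for UPS2, 0.91 for UPS1, 0.90 for UPS3, 0.78 for PSD1, 0.43 for PGS1, 0.40 for TAZ1, 0.30 for CHO1 and 0.24 for CRD1, and the median over all tested probes was 0.68. Within YPD the span over the 3 strains was 3.37 for UPS2 and at most 0.27 for the others, beside a median of 0.22 over all probes. Within YPGly it was 2.36 for UPS2 and at most 0.33 for the others, beside a median of 0.17.

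**Figure D3:**
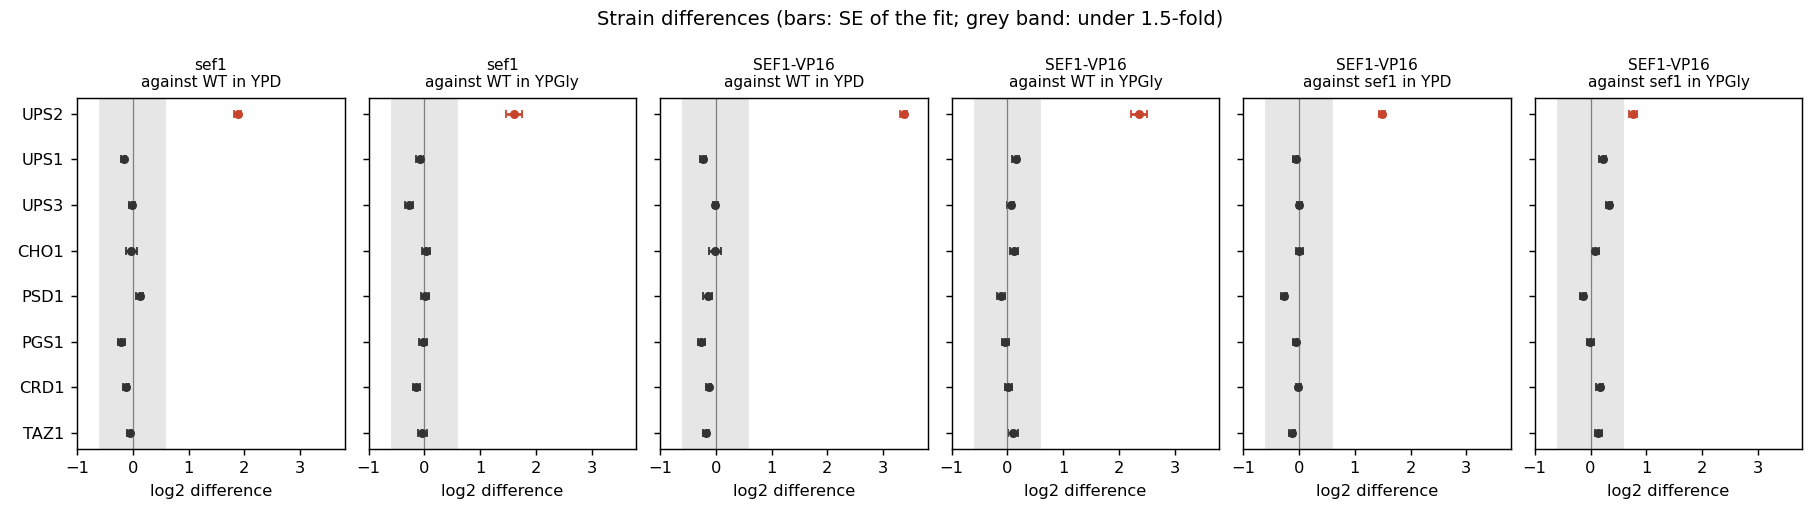
Strain differences of the 8 genes (horizontal axes, log2 difference) in the 6 strain comparisons. Points are differences between group means, bars are the SE of the fit and the grey band marks changes under 1.5-fold; UPS2 (red) lies outside the band in each panel, at 0.76 to 3.37, and the other 7 genes lie inside it.

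The strain comparisons of the wider lipid list asked whether genes of the same pathways differed with UPS2. The list held 47 genes other than UPS2, and all 47 were bright enough to be tested. It had 0 genes that passed for sef1 against WT in either medium, 0 for SEF1-VP16 against WT in YPGly and 0 for SEF1-VP16 against sef1 in YPGly. In YPD 1 gene was higher in SEF1-VP16 than in WT and also than in sef1, which is 2.13% of the list in each, below the share of all probes. The median difference over the list lay between −0.02 and 0.02 in the 6 comparisons, and the median over all tested probes between −0.02 and 0.03. Ups partner and turnover genes moved little: MDM35, which encodes the partner of Ups1 and Ups2, differed by −0.13 to 0.26 between strains, and YME1 and ATP23, whose products degrade Ups proteins, by −0.16 to 0.38.

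The gene that rose was INO2, which encodes the activator, with Ino4, of genes of phospholipid synthesis. Its YPD levels were −5.39, −4.73, −5.42 and −4.41 in WT, −4.52, −4.60, −4.73 and −4.58 in sef1 and −3.12, −2.96, −3.28 and −2.87 in SEF1-VP16. Its YPGly levels were −3.59, −3.66, −3.73 and −4.29 in WT, −3.62, −3.31, −3.48 and −3.54 in sef1 and −3.50, −3.68, −3.65 and −3.68 in SEF1-VP16. SEF1-VP16 in YPD was above every other group, the WT arrays in YPD were widely scattered, and the 3 strains overlapped in YPGly.

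In YPD, INO2 was higher in SEF1-VP16 than in WT by 1.93 ± 0.21 (adjusted p = 0.00010, limma) and than in sef1 by 1.55 ± 0.08 (adjusted p = 7.3e-07). The probe was dim, with group means from −4.99 to −3.06, and normexp gave smaller YPD differences of 1.57 and 1.27, which still passed. In YPGly the differences were 0.19 ± 0.14 (adjusted p = 0.55) and −0.14 ± 0.08 (adjusted p = 0.22). Both YPD comparisons crossed slides, and with slide as a term the values were 0.24 ± 0.24 (adjusted p = 0.59) and −0.14 ± 0.17 (adjusted p = 0.59), the last by construction the YPGly estimate. The first is by construction the sum of the estimates within a slide. No SEF1-VP16 array in YPD enters either value, so the slide term cannot check the YPD differences. INO1, the inositol phosphate synthase gene that Ino2 activates, differed by 0.46 ± 0.14 between SEF1-VP16 and WT in YPD (adjusted p = 0.022, under 1.5-fold), and without WT replicate 4 it passed at 0.62 ± 0.07, so that 2 genes of the list then passed. Without WT replicate 1 the 2 genes were INO2 and EKI1, an ethanolamine kinase gene, at 0.62 ± 0.13. CHO1 and CHO2, which Ino2 also activates, differed by −0.02 ± 0.11 and 0.29 ± 0.19 in that comparison and did not pass. OPI3, the gene grouped with CHO2 on the list, differed by −0.21 there and did not pass either.

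The test of a dependence of the strain differences on the medium gave 0 of the other 7 genes in each of its 3 forms. Of all probes, 0.886% passed for the sef1 and 10.6% for the SEF1-VP16 difference from WT, and 8.62% for the difference of SEF1-VP16 from sef1. Over the 47 lipid genes the counts were 0, 2 and 2. INO2 was one in both, with −1.74 ± 0.28 (adjusted p = 0.00029, limma) against WT and −1.69 ± 0.12 (adjusted p = 9.2e-08) against sef1. EKI1 was the other against WT, with −0.66 ± 0.17 (adjusted p = 0.0082). Its call was lost at −0.34 with normexp background correction (adjusted p = 0.14), and fell under the fold minimum with the array median (−0.54), with quantile normalization (−0.52) and without WT in YPD replicate 4 (−0.51). GPT2, which encodes a glycerol-3-phosphate acyltransferase, was the other against sef1, with 0.70 ± 0.09 (adjusted p = 3.8e-05). Each of these compares slides as well as media.

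The comparison of the media asked how the lipid genes stood in respiratory against fermentative growth. In WT 12 genes of the list rose in YPGly and 8 fell, in sef1 11 rose and 8 fell, and in SEF1-VP16 14 rose and 7 fell. That is 42.6%, 40.4% and 44.7% of the list, close to the 39.2%, 38.8% and 41.4% of all probes. Of the 7 genes other than UPS2, 1, 3 and 1 passed, and the median difference over the list was 0.02, −0.01 and −0.08. All 3 comparisons crossed slides. All 5 glucose-repressed markers (ADH2, JEN1, ICL1, FBP1 and PCK1) rose in YPGly in each strain, FBP1, which encodes a gluconeogenic enzyme, by 6.48 in WT, 6.86 in sef1 and 7.15 in SEF1-VP16.

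The largest change of the list was that of INO1, which rose by 4.11 ± 0.16 in WT (adjusted p = 6.3e-09, limma), 3.68 ± 0.13 in sef1 and 3.54 ± 0.08 in SEF1-VP16. PIS1, the phosphatidylinositol synthase gene, had differences of −2.17 ± 0.06 in WT, −1.88 ± 0.05 in sef1 and −2.23 ± 0.09 in SEF1-VP16, and fell in each. EPT1, which encodes a phosphotransferase of the last step of the Kennedy pathway, fell too, with −1.77 ± 0.09, −1.88 ± 0.09 and −2.22 ± 0.05. OPI1, which encodes the repressor of Ino2 and Ino4, rose by 1.81 ± 0.13 in WT, 1.77 ± 0.09 in sef1 and 1.62 ± 0.12 in SEF1-VP16.

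Over all 5641 probes 1189 rose and 1021 fell in WT, 1093 rose and 1095 fell in sef1, and 1108 rose and 1226 fell in SEF1-VP16. The counts of the small groups of the list are given beside these as a description, with no test. The cardiolipin group had 6 genes, of which 3 rose in WT, 2 in sef1 and 2 in SEF1-VP16, and 0 fell. CLD1, which encodes the phospholipase that deacylates new cardiolipin, rose by 1.51 ± 0.08, 1.75 ± 0.06 and 1.88 ± 0.09 in the 3 strains, and TAM41, the cytidyltransferase gene of the pathway, by 0.83 ± 0.06, 0.83 ± 0.05 and 0.77 ± 0.07. GEP4, the phosphatase gene, rose in WT by 0.83 ± 0.09. PGS1, CRD1 and TAZ1 were the 3 genes of the group that did not pass in any strain. In the Kennedy pathway group of 6 genes 0 rose and 3 fell in WT, 2 in sef1 and 3 in SEF1-VP16.

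Of the genes for contact sites and lipid traffic, 2 of 7 rose in WT, 2 in sef1 and 3 in SEF1-VP16. VPS13, which encodes a bridge-like lipid transfer protein, rose by 0.94 ± 0.10, 1.00 ± 0.07 and 1.25 ± 0.05. Among 6 inner membrane genes 2, 2 and 3 rose and 1 fell in each strain. MDM32 rose by 0.83 ± 0.07, 0.97 ± 0.05 and 0.95 ± 0.06, MGM1, which encodes the dynamin-like GTPase of inner membrane fusion, by 0.74 ± 0.08, 0.78 ± 0.05 and 0.70 ± 0.05, and FMP30 fell, with −1.27 ± 0.08, −1.13 ± 0.06 and −1.28 ± 0.06. MDM35, YME1 and ATP23 did not pass in any strain, MDM35 having −0.44, −0.35 and −0.15.

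**Figure D4:**
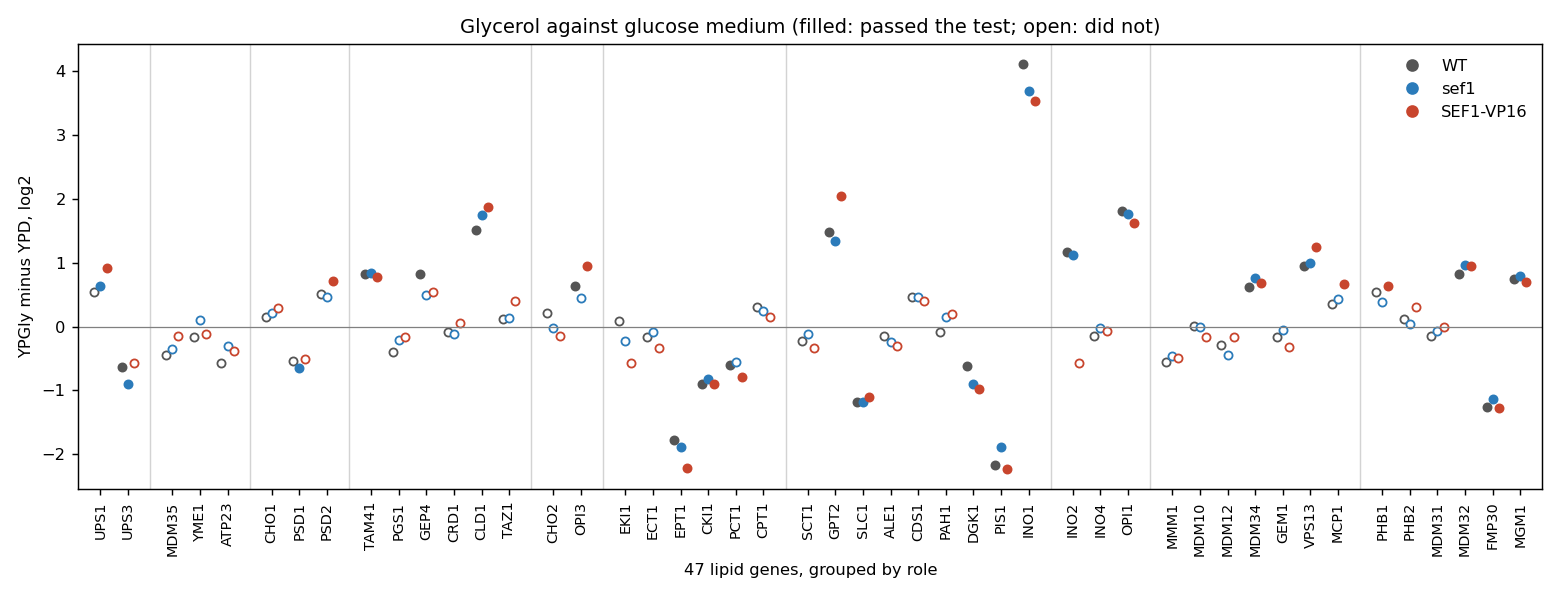
Difference between YPGly and YPD (vertical axis, log2) of the 47 lipid genes other than UPS2, grouped by role and separated by grey lines, in WT (grey), sef1 (blue) and SEF1-VP16 (red). Filled points passed the test (20, 19 and 21 genes) and open points did not; INO1 is highest and PIS1 and EPT1 are lowest.

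Genes next to UPS2 did not share its order of strains. SEC10, an exocyst subunit gene, and RPS31, which encodes a ubiquitin fused to a ribosomal protein, lie on one side of UPS2 in the reference gene table (R64), and APS1 and DPH5, which encodes a diphthamide synthesis enzyme, on the other. SEC10 differed between strains by −0.12 to 0.10, RPS31 by −0.26 to 0.14 and DPH5 by −0.32 to 0.23, and none of them passed. The probes of YLR169W and YLR171W, loci that by name lie among these genes, were too dim to be tested.

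APS1, which encodes the small subunit of a clathrin adaptor complex, went the other way in SEF1-VP16. Its YPD levels were −1.43, −1.45, −1.37 and −1.50 in WT, −1.17, −1.15, −1.16 and −1.16 in sef1 and −2.08, −1.96, −1.98 and −1.99 in SEF1-VP16, and its YPGly levels were −1.55, −1.34, −1.18 and −1.45, −1.40, −1.34, −1.57 and −1.45, and −2.38, −2.26, −2.44 and −2.77 in the same order. SEF1-VP16 was below both other strains in both media. Against sef1 the difference was −0.84 ± 0.04 in YPD (adjusted p = 4.1e-07, limma) and, within a slide, −1.02 ± 0.10 in YPGly (adjusted p = 0.00015), against WT in YPD it was −0.57 ± 0.05, just under 1.5-fold (adjusted p = 3.9e-05), and the glycerol difference from WT was −1.08 ± 0.12, with an adjusted p of 0.00082. In sef1 against WT it was 0.28 ± 0.05 in YPD (adjusted p = 0.016, under 1.5-fold) and −0.06 ± 0.09 in YPGly (adjusted p = 0.75).

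The probes whose pattern was most like that of UPS2 were found by correlation over the 24 arrays, after each array's level was set against the mean of all arrays of its medium. They were HAP4 (Pearson r = 0.956), YDR514C (0.889), YGL046W (0.878), ISU1 (0.870) and CTH1 (0.870). The 24 points share 3 slides and 6 groups, and the probes were picked on this measure, so no test is given. In the reference gene table YGL046W is an older name within RIM8. None of the 5 is on the lipid list.

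HAP4, which encodes the activating subunit of the complex that turns on genes of respiration, had group means of 0.50 in WT, 1.11 in sef1 and 2.13 in SEF1-VP16 in YPD, and of 0.64, 1.18 and 1.90 in YPGly. Its order of strains was that of UPS2 in both media, while its level in YPGly minus that in YPD was 0.14 in WT, 0.07 in sef1 and −0.22 in SEF1-VP16. ISU1, which encodes the scaffold on which iron-sulfur clusters are built, had group means of 0.42, 0.75 and 2.45 in YPD and of 1.88, 2.22 and 3.74 in YPGly. For ISU1 the step from WT to sef1 was small and that from sef1 to SEF1-VP16 large, whereas for UPS2 the step from WT to sef1 was the larger one in both media.

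**Figure D5:**
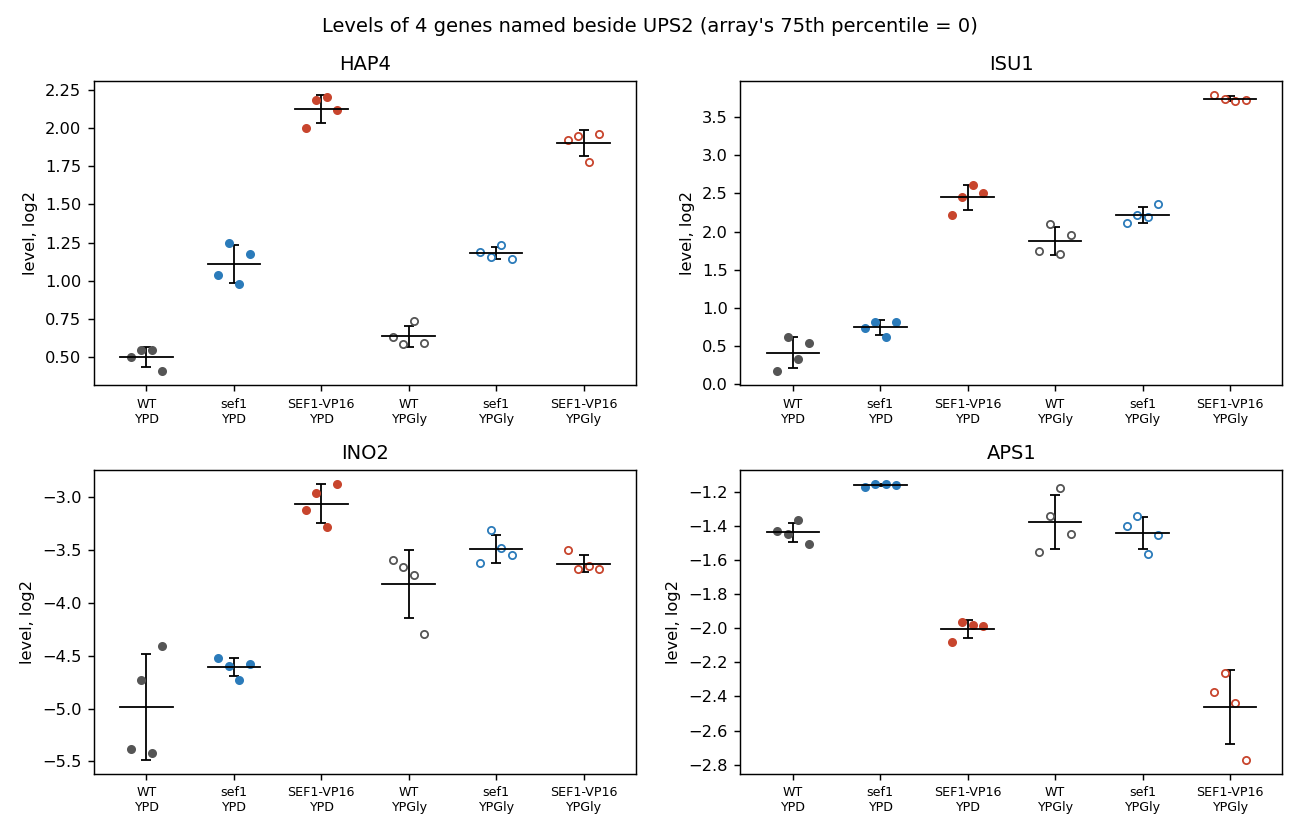
Levels of HAP4, ISU1, INO2 and APS1 on each array (vertical axes, log2 intensity relative to the array's 75th percentile, each with its own range) in the 6 groups. Points are arrays (grey WT, blue sef1, red SEF1-VP16, filled in YPD and open in YPGly), lines are means and bars are SD (n = 4); HAP4 runs from 0.50 in WT to 2.13 in SEF1-VP16 in YPD, and APS1 is lowest in SEF1-VP16.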

How the data were processed

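The authors deposited 1 scanner table per array with spot intensities in 1 channel (Agilent Feature Extraction 10.5.1.1 per the file headers), and a table of log2 values, which equalled the scanner values minus a constant per array (largest departure 2.48e-06) and served as an alternative. The authors scaled arrays to the 75th percentile and used an unpaired t-test. Here the processed intensity was taken to log2, 164 spots marked as outliers were left out, the 2 spots of a probe were averaged and the array's 75th percentile was subtracted. Probes with a mean intensity of 200 in at least 1 group were tested (5641 of 6256, 90.2%). Groups came from the labels. Differences were fitted with limma 3.58.1 in R 4.3.3 over the 8 arrays of 2 groups (16 for medium dependence), with Benjamini-Hochberg adjustment, and passed at an adjusted p below 0.05 and 1.5-fold, the criteria in the methods. The fit was tested on simulated data.

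The 8 genes and the lists were chosen with earlier results of these data known. Named genes were the 8, the neighbours of UPS2, the 5 probes most like it, lipid genes that passed between strains, and per medium comparison the 3 with the largest change; others named as examples of their group were chosen after their values were seen. Probe sequences come from the study's supplementary annotation, which held 1 of the 8. Alternatives were 4 other scalings or sources, no filter, the methods' t-test, 1 fit of all arrays, a replicate block, other fold minimums, slide as a term and each array left out. The number of arrays limits the precision.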

Additional observations from a re-analysis of the deposited data

Results flagged for a closer look

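Among 102 groups of 4 arrays (17 genes in 6 groups), 3 had 1 array whose gap to the rest exceeded the 95% critical value of Dixon's test, and chance flags about 1 in 20 groups. PGS1 in SEF1-VP16 in YPD was −1.46 on replicate 1 against −1.44 to −1.43 on the others. DPH5 in WT in YPD was 1.07 on replicate 4 against 0.71 to 0.77. INO2 in SEF1-VP16 in YPGly was −3.50 on replicate 1 against −3.68 to −3.65.

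A difference between media in a strain difference passed the interaction test for 3 lipid genes. INO2 in SEF1-VP16 changed by −1.74 against WT and by −1.69 against sef1 from YPD to YPGly, EKI1 by −0.66 against WT (−0.34 and not past the threshold with normexp) and GPT2 by 0.70 against sef1. Medium and slide cannot be told apart in any of them.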

How the results depend on the processing

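By construction, the UPS2 strain differences could not change without the filter, with the methods' t-test, 1 fit of all arrays, the replicate block or other fold minimums. Under the alternatives that could move them, these differences kept their direction. With slide as a term they were 1.88 (sef1 minus WT), 2.64 (SEF1-VP16 minus WT) and 0.76 (SEF1-VP16 minus sef1), which moved the value in 4 of the 6 comparisons, and apart from that term they lay between 1.79 and 1.91, 1.49 and 1.73, 3.23 and 3.40, 2.25 and 2.49, 1.43 and 1.54, and 0.73 and 0.81 in the order in which the comparisons were given (sef1 against WT, SEF1-VP16 against WT and SEF1-VP16 against sef1, each in YPD and YPGly). The shifts beyond the replicate SD were 1.79 with normexp on the median spot signal and 1.80 with quantile normalization for sef1 against WT in YPD, and 3.23 with normexp and 3.27 with the array median for SEF1-VP16 against WT in YPD. Without the fold minimum, the lipid genes that passed, of 47, numbered 1 for sef1 against WT in each medium, 22 for SEF1-VP16 against WT in YPD, 14 and 9 for SEF1-VP16 against sef1 in YPD and YPGly, 33, 37 and 41 for the media in WT, sef1 and SEF1-VP16, and 1, 12 and 16 for medium dependence. Of all 5641 probes, 460 and 226 then passed for sef1 against WT and 2716 for SEF1-VP16 against WT in YPD. In the same order 2488 and 1282 passed for SEF1-VP16 against sef1, and 4039, 4502 and 4482 for the media. For medium dependence 115, 1803 and 2111 did. With a minimum of 2-fold the media gave 9 in each strain, and medium dependence 1 for SEF1-VP16 against WT and 1 against sef1. The share of all probes at that minimum was not computed. Quantile normalization left 1 for medium dependence of SEF1-VP16 against WT. The call of EKI1 there was lost with quantile normalization (−0.52), normexp (−0.34), the array median (−0.54), a minimum of 2-fold and without WT in YPD replicate 4 (−0.51), although normexp and the array median each gave 2 genes. With slide as a term 0 lipid genes passed for SEF1-VP16 against WT and 0 against sef1 in YPD, where INO2 was at 0.24 and −0.14. By construction that fit takes its strain estimates from the comparisons within a slide alone. No SEF1-VP16 array in YPD enters them, so they cannot check a call in YPD. Leaving out 1 array gave 1 to 2 lipid genes for SEF1-VP16 against WT in YPD (2 without WT replicate 1 or 4) and 2 to 4 for its medium dependence (4 without WT in YPGly replicate 4 or SEF1-VP16 in YPGly replicate 1, GPT2 and INO1 being added).

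Replicate numbers did not pair the samples, since same-numbered arrays correlated between −0.44 and 0.53 in their deviations, and in 0 of the 9 comparisons did every pair exceed 0.1. With the replicate block 0, 0, 1, 0, 1 and 0 lipid genes passed in the strain comparisons and 20, 19 and 21 in the media, the same counts as without it. Normexp on the mean spot signal was planned but not run, since the scanner tables read here held the median spot signal and not the mean. Normexp on the median spot signal and the alternatives for medium dependence were added after seeing the data.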
